A study of Homo sapiens with 9 samples.

Results

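The HOX, DLX and IRX genes encode transcription factors with a homeodomain, the DNA-binding fold shared by regulators of body pattern. Every gene of these 3 families was taken by its symbol after the Ensembl gene IDs of the files had been paired with symbols. This gave 51 of 41857 genes, and 50 of them are described, 38 HOX genes, 6 DLX genes and 6 IRX genes. Their RNA was compared in MCF10A, a human mammary epithelial cell line that is not tumorigenic, which carried human deltaNp63beta, human deltaNp63alpha or the vector alone. The labels call the genotype WT, and every culture, those with vector included, was given doxycycline at 500 ng/mL for 24 h to induce the transgene. Each group had 3 libraries of poly(A) RNA that the design text calls biological triplicates. The labels do not say whether a line is a clone or a pool of cells. p63 is the master regulator of stratified and basal epithelia, and its deltaN forms lack the long N-terminal transactivation domain. The alpha and beta isoforms share the DNA-binding domain and differ in the C-terminal part.

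In the embryo the HOX genes lie in clusters and are switched on in the order in which they stand there, so that each body level carries its own HOX combination. Cells of adults keep part of that combination, Polycomb complexes hold the other HOX genes silent, and Trithorax-group complexes keep active ones on. DLX genes come in linked pairs, act in the limb ridge, branchial arches and forebrain, and include known targets of p63 in ectodermal and limb development. IRX genes also stand in clusters and pattern the heart, limb, neural tube and skin appendages.

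The 9 libraries summed to between 22.5 and 23.2 M (mega) normalized estimated counts, and the step between low values put the depth before normalization at about 20.4 to 24.5 M. Only genes that reached 10 in 3 or more libraries were tested, 15108 in all. TP63 RNA lay between 4183 and 6719 with deltaNp63beta, between 4426 and 6983 with deltaNp63alpha and between 259 and 332 with vector. The 6 basal markers fixed for MCF10A summed to between 279283 and 292450 with deltaNp63beta, between 168055 and 176510 with deltaNp63alpha and between 94952 and 103654 with vector. Over the 9 libraries, KRT5 had 53800 to 149719, ITGB4 21858 to 45535 and KRT17 6545 to 78837. EGFR had 10200 to 15493, CDH3 2073 to 10210 and KRT14 383 to 9886. All 7 fibroblast markers were detected, with sums of 12398 to 13481 with deltaNp63beta, 7756 to 7867 with deltaNp63alpha and 10568 to 10904 with vector. Most of these sums was FBLN1, at 7160.1 to 12976. DCN had 140 to 1212, COL1A1 160 to 358, LUM 3.53 to 13.6 and COL1A2 0.92 to 13.4. PDGFRA reached 29.4 and COL3A1 3.08 at most. Sums of the 5 endothelial markers were 110 to 140.5 with deltaNp63beta, 166 to 172 with deltaNp63alpha and 204 to 275 with vector, made up of KDR at 75.7 to 149, PECAM1 at 24.1 to 80.3, TEK at 6.69 to 44.6, VWF at up to 15.5 and CDH5 at up to 1.84. The 6 leukocyte markers summed to 1241 to 1369, 1281 to 1641 and 1871 to 2086 in deltaNp63beta, deltaNp63alpha and vector libraries, in which CD68 had 586 to 1161, ITGB2 138 to 569.6, LAPTM5 139 to 315, CSF1R 53.0 to 184 and CD14 8.08 to 219, while PTPRC, the pan-leukocyte marker, was at 4.22 at most. The 5 neural markers summed to 2330.2 to 2558, 2961 to 3442 and 3014 to 3254 in the same groups, and TUBB3 alone held between 1825 and 3125 of that. MAP2 had 209 to 460, NEFL 8.81 to 78.9, GFAP 1.93 to 31.1 and SOX10 up to 21.4. The 6 luminal markers summed to 14327 to 15670 with deltaNp63beta, 12056 to 12915 with deltaNp63alpha and 12599 to 12740 with vector. KRT18 had 7018 to 9300, KRT8 4199 to 5768, GATA3 171 to 284, FOXA1 76.6 to 314 and ESR1 10.3 to 59.0, and ELF5 was at 0 in all 9 libraries. The part of these markers in the changes described here was not tested. In bulk RNA, fewer cells with a transcript and less of it per cell cannot be told apart.

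MCF10A cells carried RNA of 3 HOX clusters and of most IRX genes, and hardly any of HOXD. Of the 50 genes, 29 passed the filter on low values, namely 8 of 10 HOXA, 5 of 10 HOXB, 8 of 9 HOXC, 0 of 9 HOXD, 3 of 6 DLX and 5 of 6 IRX genes. Among the 21 that did not pass, HOXB1, HOXC12, HOXD1, HOXD4, HOXD9 and HOXD10 were at 0 in all 9 libraries, 11 were above 0 in some libraries and 4 were above 0 in each. The other 15 were HOXA7, HOXA13, HOXB5, HOXB6, HOXB7, HOXB8, HOXD3, HOXD8, HOXD11, HOXD12, HOXD13, DLX3, DLX5, DLX6 and IRX6. Their highest value was 11.03, for HOXB6 in replicate 2 of deltaNp63alpha, and DLX6 and HOXB8 reached 8.66 and 7.81. The 9 HOXD genes together summed to 7.45 ± 2.62 with deltaNp63beta, 5.10 ± 2.75 with deltaNp63alpha and 3.11 ± 0.40 with vector (mean ± SD, n = 3 each).

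**Figure D1:**
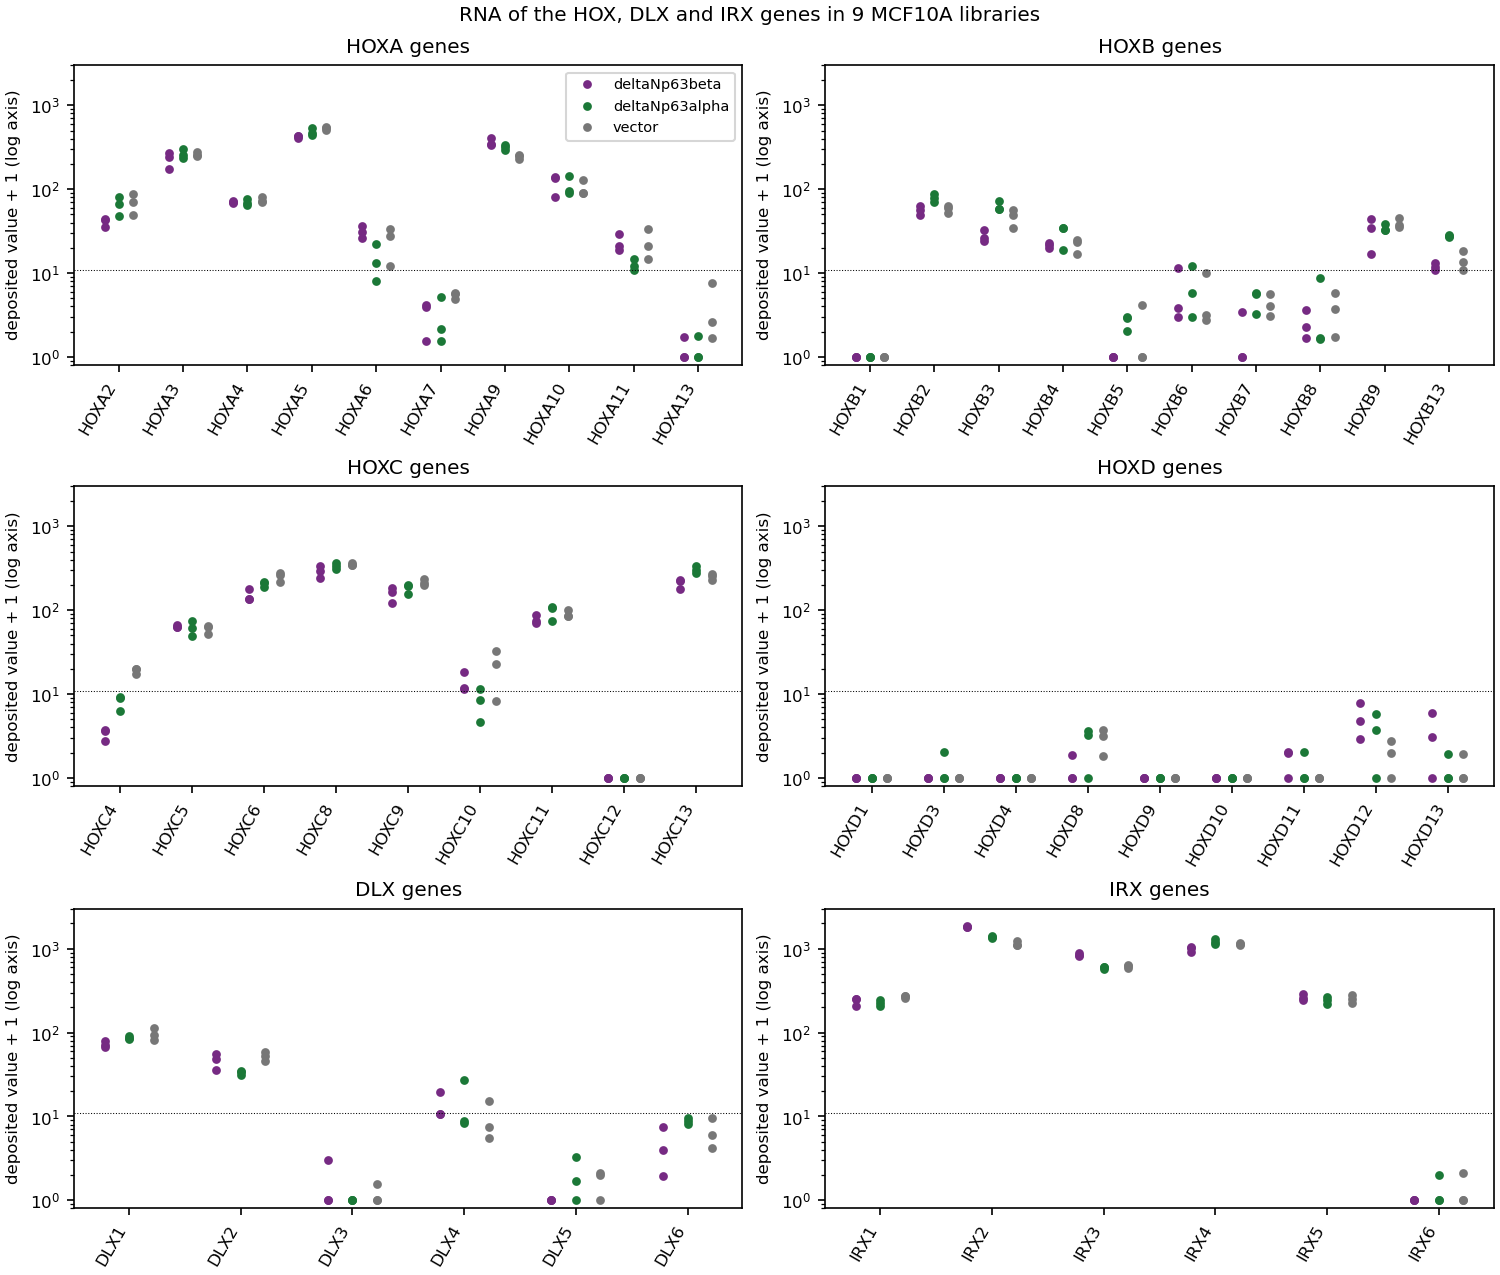
Deposited value plus 1 on a log axis for each of the 50 genes, with a panel for each HOX cluster and for the DLX and IRX families, 1 point a library. The dotted line stands at a value of 10; 0 of 9 HOXD genes passed the filter, against 8 of 9 HOXC genes.

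Levels can be set against each other only per length, so the deposited values were divided by the mean length of the coding transcripts of each gene in GENCODE 29. On this scale of value per kb, the vector libraries were highest for IRX4 at 474 ± 8.09 and IRX2 at 453 ± 29.8 (mean ± SD, n = 3), which lie within 1 SD of each other. HOXA5 followed at 318 ± 11.9, IRX3 at 236 ± 8.10, HOXC8 at 187 ± 7.62 and HOXA9 at 171 ± 11.1. For HOXC8 and HOXA9 the means differ by more than either SD, though the ranges of mean ± SD overlap. HOXA9 has annotated coding transcripts of 797 to 2060 bases, so its place in this order depends on which is made. With deltaNp63beta the order began with IRX2 at 721 ± 19.0, then IRX4 at 416 ± 26.7 and IRX3 at 326 ± 15.8 per kb.

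Cells with deltaNp63beta differed from vector cells in 9 of the 29 genes tested, 3 higher and 6 lower. IRX2, IRX3 and HOXA9 rose, while HOXA5, HOXB3, HOXC4, HOXC6, HOXC9 and IRX4 fell (limma, adjusted p under 0.05 over all genes tested). That is 31.0% of the genes tested in these families, and 41.3% of all 15108 genes tested were called in this comparison, 21.8% higher and 19.5% lower. Groups did not overlap for 14 of the 29 genes, against 50.6% of all genes tested. HOXC4 is in these counts, although it passed the filter through its 3 vector libraries alone. It had to be higher with vector to be tested, so it does not bear on the direction. The median log2 fold change was -0.19 over the 29 genes and -0.00 over all genes, with median absolute changes of 0.29 and 0.28. With no filter, 3 were higher and 3 lower than vector. The lower count was 2 without vector replicate 2 and 3 without deltaNp63beta replicate 1 or vector replicate 1 or 3, beside 3 higher each time. HOXC4 was not tested when a vector library was left out, and the count without vector replicate 3 includes HOXA2 as a gained call. With deltaNp63alpha, IRX2 and HOXA9 rose against vector and 0 of 29 genes fell, which makes 6.90%, against 14.5% of all genes tested, 8.13% higher and 6.37% lower. At unadjusted p under 0.05, limma had 5 of the 29 higher and 2 lower, HOXC4 among the lower. Groups did not overlap for 11 of the 29, HOXC4 among them, against 33.5% of all genes. The median log2 fold change was -0.05, against -0.01 over all genes.

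Set directly against deltaNp63alpha, deltaNp63beta libraries were higher in IRX2 and IRX3 and lower in HOXB3, HOXB13, HOXC6, HOXC13 and IRX4. These 7 genes are 24.1% of the 29, and 32.9% of all genes tested were called in this comparison, 17.4% higher and 15.5% lower. For 16 of the 29 the groups did not overlap, against 44.8% of all genes. Their median log2 fold change was -0.21, against -0.00 over all genes. In each of the 3 comparisons the share called was below that of all genes tested. The median SE was 0.19 over the 29 genes and 0.11 over all genes. At the same change, a larger SE makes a call less likely, but the part of the SE in these shares was not tested. Median absolute changes were 0.26 for deltaNp63alpha against vector and 0.31 between the isoforms, against 0.16 and 0.23 over all genes. The share of genes with groups apart was above that of all genes there, and below it for deltaNp63beta against vector. Whether these families differ from other genes was not tested. Both comparisons with vector share the same 3 vector libraries.

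**Figure D2:**
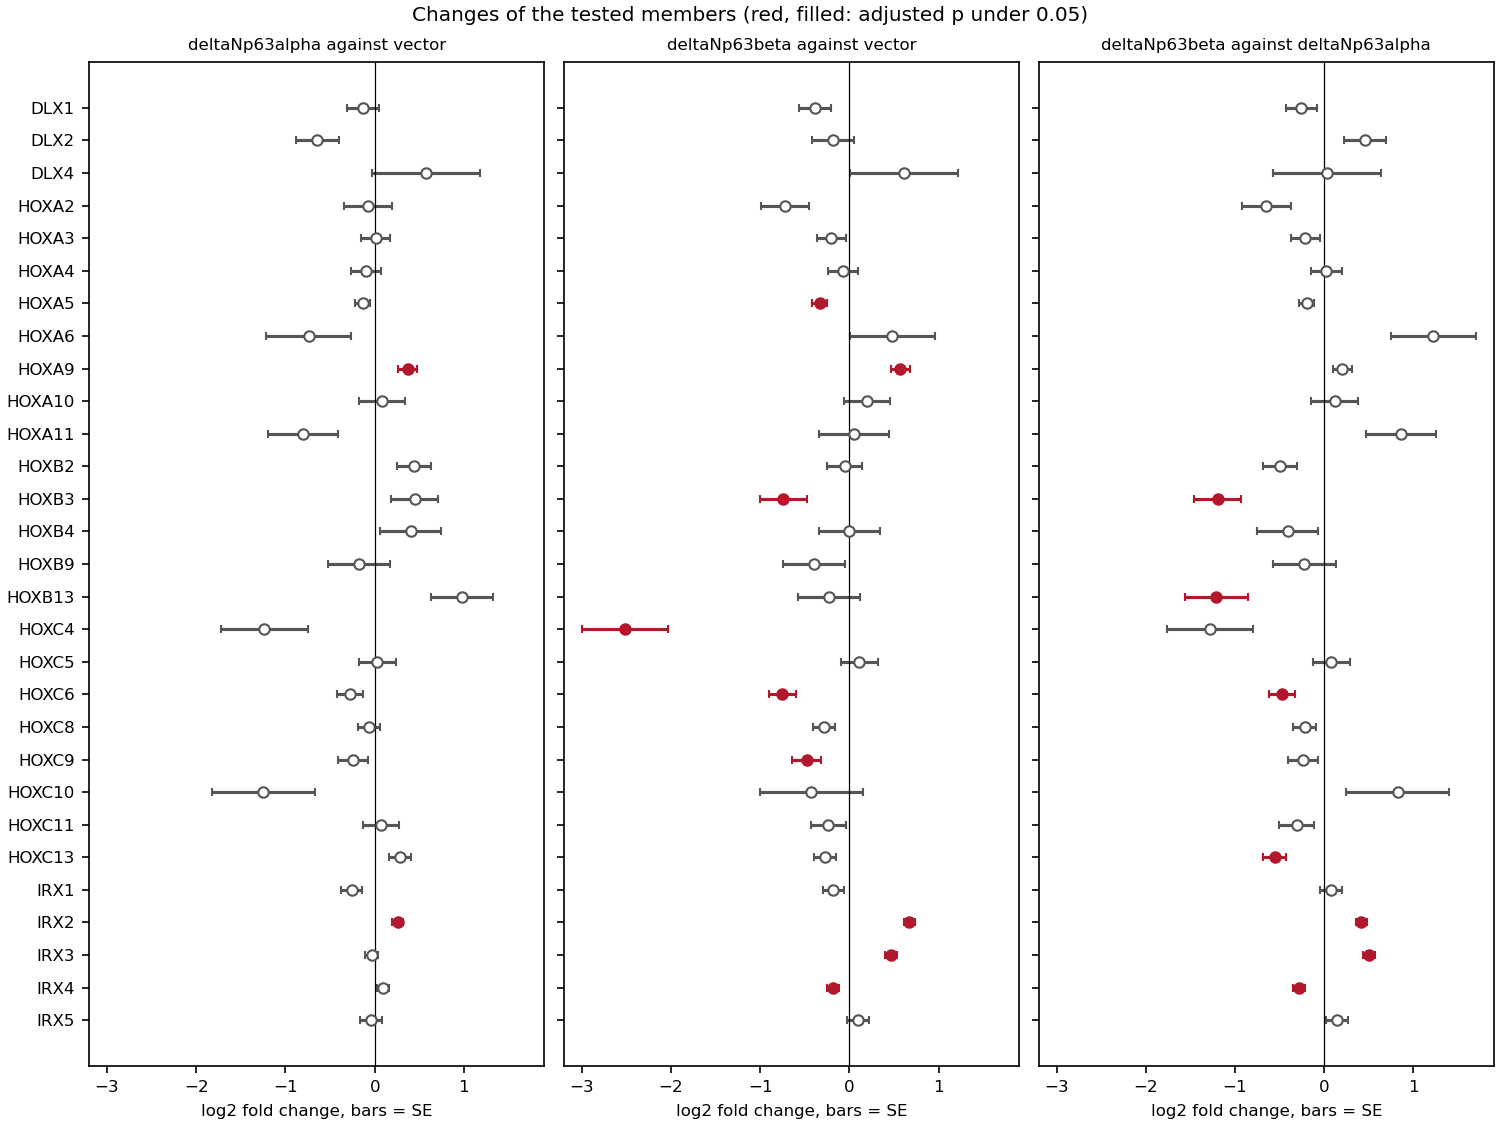
Log2 fold change ± SE of each of the 29 genes tested, on the log2(value + 1) scale, in the 3 comparisons; red filled points have a limma adjusted p under 0.05. IRX2 is called on the positive side in all 3 panels, at 0.67 with deltaNp63beta and 0.26 with deltaNp63alpha against vector.

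Of the 5 IRX genes tested, 2 rose and 1 fell with deltaNp63beta against vector. IRX2 (ENSG00000170561, chromosome 5, 2745845 to 2751662, minus strand, GRCh38, protein coding) stands beside IRX1 and IRX4 and is expressed in ductal and lobular epithelium of the breast. Its start, shown because IRX2 was higher than vector with both isoforms, lies in a sequence with 34 CpG dinucleotides. The sequence is RefSeq's on GRCh38.p14, chr5:2751628-2751927, minus strand, 250 bases before to 50 after the start, with each CpG in capitals.
IRX2: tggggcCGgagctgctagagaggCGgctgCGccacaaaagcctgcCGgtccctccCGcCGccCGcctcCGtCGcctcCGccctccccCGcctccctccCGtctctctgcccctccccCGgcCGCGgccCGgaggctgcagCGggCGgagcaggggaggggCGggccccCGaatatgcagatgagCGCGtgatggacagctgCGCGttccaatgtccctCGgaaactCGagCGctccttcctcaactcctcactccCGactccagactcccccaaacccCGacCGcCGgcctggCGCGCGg
IRX2 had 1818, 1794 and 1887 in deltaNp63beta libraries, 1369, 1415 and 1337 in deltaNp63alpha libraries and 1239, 1108 and 1107 in vector libraries. All 3 groups stood apart, with deltaNp63beta highest and vector lowest. The log2 fold change was 0.67 ± 0.06 (SE) for deltaNp63beta against vector, with a limma adjusted p of 5.02e-06, and 0.42 ± 0.06 for deltaNp63beta against deltaNp63alpha, with an adjusted p of 0.00031. For deltaNp63alpha against vector it was 0.26 ± 0.06 with an adjusted p of 0.0142, which became 0.0561, 0.0576 and 0.0582 without deltaNp63alpha replicate 2, vector replicate 2 and vector replicate 3.

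IRX3 (ENSG00000177508, chromosome 16, 54283304 to 54286763, minus strand), which patterns the heart conduction system and neural tube, lies in the other IRX cluster. Its values were 818, 829 and 894 with deltaNp63beta, 611, 573 and 610.3 with deltaNp63alpha and 632, 617 and 590.1 with vector. The deltaNp63beta libraries lay above all others, and the deltaNp63alpha and vector libraries overlapped. IRX3 rose with deltaNp63beta by 0.47 ± 0.07 against vector (adjusted p 0.00026) and by 0.50 ± 0.07 against deltaNp63alpha (adjusted p 0.000246), while deltaNp63alpha against vector gave -0.04 ± 0.07 (adjusted p 0.798). An antisense gene shares exon bases with IRX3. That antisense gene has no values of its own in the deposited data. The strand setting of the counting is not given in the sources used here. For this and other genes that share exon bases with an antisense gene, reads from the shared bases therefore cannot be told apart.

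IRX4 (ENSG00000113430, chromosome 5, 1877413 to 1887236, minus strand), a regulator of ventricular identity in the heart, fell with deltaNp63beta where its cluster neighbour IRX2 rose. It had 924, 1015 and 1047 in deltaNp63beta libraries, 1151, 1287 and 1185 in deltaNp63alpha libraries and 1154, 1130.0 and 1115 in vector libraries. Every deltaNp63beta library was below every other library. IRX4 fell with deltaNp63beta by 0.28 ± 0.07 on the log2 scale against deltaNp63alpha (adjusted p 0.00788). Against vector the change was -0.19 ± 0.07 with an adjusted p of 0.0414, and this call was lost when any of 6 libraries was left out. The adjusted p was then 0.0554 without deltaNp63alpha replicate 3, 0.143 and 0.0647 without deltaNp63beta replicates 1 and 2, and 0.107, 0.0851 and 0.0721 without vector replicates 1, 2 and 3. Looser filters gave 0.0565 and 0.0801, only the groups compared gave 0.0514, and no trend or robust moderation gave 0.0601. IRX1 and IRX5 did not pass in any comparison. IRX1 averaged 236 ± 26.9 with deltaNp63beta, 224 ± 18.3 with deltaNp63alpha and 267 ± 9.64 with vector, and IRX5 averaged 266 ± 22.9, 241 ± 21.2 and 249 ± 27.6 in the same groups (mean ± SD, n = 3 each). IRX6 reached 1.11 at most.

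**Figure D3:**
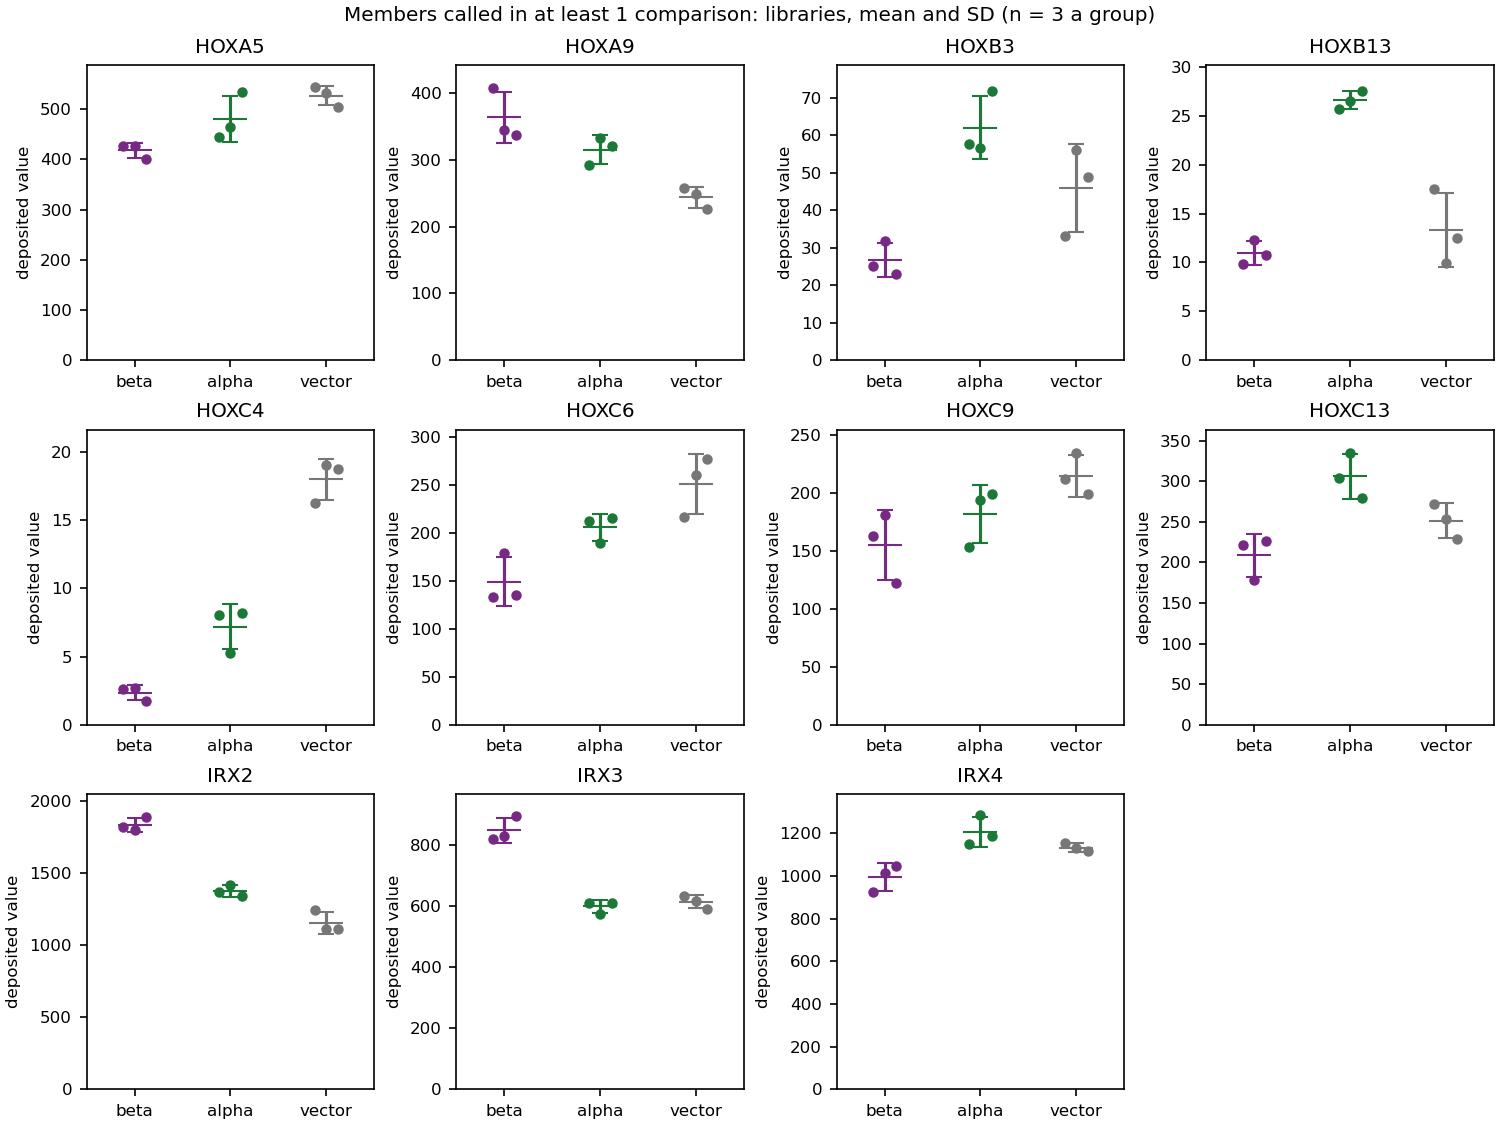
Deposited values of the 11 genes called in at least 1 comparison, with each library as a point and the mean and SD as bars (n = 3 a group); each panel starts at 0. IRX2 stands highest with deltaNp63beta (1794 to 1887) and HOXC4 lowest (1.73 to 2.72).

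Of the 8 HOXA genes tested, HOXA9 rose and HOXA5 fell with deltaNp63beta against vector. HOXA5 (ENSG00000106004, chromosome 7, 27141052 to 27143668, minus strand), needed for lung and axial development, was the HOX gene with the most RNA per kb in vector cells. It had 426, 426 and 401 with deltaNp63beta, 445, 464 and 533 with deltaNp63alpha and 544, 533 and 505 with vector. The deltaNp63beta libraries were below all others, while deltaNp63alpha and vector overlapped. HOXA5 fell with deltaNp63beta by 0.33 ± 0.09 against vector (adjusted p 0.0101), and the other changes were -0.20 ± 0.09 for deltaNp63beta against deltaNp63alpha (adjusted p 0.110) and -0.14 ± 0.09 for deltaNp63alpha against vector (adjusted p 0.363).

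HOXA9 (ENSG00000078399, chromosome 7, 27162435 to 27175180, minus strand), a factor of blood progenitors and of the posterior axis, rose with both isoforms. Its start is shown as that of the HOX gene with a rise against vector in both comparisons. It holds 22 CpG dinucleotides, in capitals, in RefSeq's chr7:27165488-27165787, minus strand, GRCh38.p14.
HOXA9: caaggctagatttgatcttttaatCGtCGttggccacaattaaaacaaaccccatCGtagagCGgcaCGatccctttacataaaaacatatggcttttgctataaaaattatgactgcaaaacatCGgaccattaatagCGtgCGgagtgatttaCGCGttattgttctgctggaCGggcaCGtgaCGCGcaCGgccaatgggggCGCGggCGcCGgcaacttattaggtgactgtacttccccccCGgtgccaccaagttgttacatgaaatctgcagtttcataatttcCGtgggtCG
HOXA9 had 408, 346 and 338 with deltaNp63beta, 292, 334 and 321 with deltaNp63alpha and 257, 248 and 227 with vector. All 3 groups stood apart, although replicate 3 of deltaNp63beta lay close to replicate 2 of deltaNp63alpha. Against vector the log2 fold change was 0.57 ± 0.11 with deltaNp63beta (adjusted p 0.0015) and 0.37 ± 0.11 with deltaNp63alpha (adjusted p 0.0445). The isoforms differed by 0.20 ± 0.11 for deltaNp63beta against deltaNp63alpha (adjusted p 0.184). The call with deltaNp63alpha was lost without deltaNp63alpha replicates 1, 2 and 3 (adjusted p 0.05003, 0.137 and 0.123), deltaNp63beta replicate 2 (0.0577) and vector replicates 1, 2 and 3 (0.0634, 0.0899 and 0.141). It was also lost with equal library totals (0.0549), with looser filters (0.0611 and 0.0830) and with only the groups compared (0.0503). HOXA9 shares exon bases with an antisense gene of HOXA10 and with a readthrough gene of HOXA9 and HOXA10, which is listed at 0 in all 9 libraries.

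The other 6 HOXA genes tested did not pass in any comparison. HOXA2, the selector gene of the branchial arches, had 34.3, 42.0 and 43.2 with deltaNp63beta, 79.5, 65.7 and 47.3 with deltaNp63alpha and 68.9, 86.9 and 48.3 with vector. Although the deltaNp63beta libraries lay below all others, its change against vector was -0.72 ± 0.27 with an adjusted p of 0.0525. Without deltaNp63alpha replicate 3 or vector replicate 3 that p was 0.0449 or 0.0217, and with equal library totals it was 0.0437. HOXA6, a factor of the thoracic axis, had 35.1, 30.2 and 25.3 with deltaNp63beta, 21.1, 6.95 and 12.3 with deltaNp63alpha and 26.5, 32.2 and 10.96 with vector. Its change for deltaNp63beta against deltaNp63alpha was 1.22 ± 0.48 with an adjusted p of 0.0722, and 0.0377 or 0.0436 without deltaNp63alpha replicate 1 or vector replicate 3. HOXA3, HOXA4, HOXA10 and HOXA11 ranged over 175 to 303, 63.7 to 80.6, 80.1 to 142 and 9.79 to 32.1 across the 9 libraries.

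Of the 5 HOXB genes tested, HOXB3 and HOXB13 were lower with deltaNp63beta than with deltaNp63alpha, and HOXB3 was also lower than with vector. HOXB3 (ENSG00000120093, chromosome 17, 48548870 to 48604912, minus strand), a hindbrain and thyroid patterning gene, had 25.2, 31.8 and 23.0 with deltaNp63beta, 57.8, 56.6 and 71.7 with deltaNp63alpha and 33.0, 55.9 and 48.7 with vector. The groups did not overlap. For deltaNp63beta against deltaNp63alpha, HOXB3 changed by -1.19 ± 0.26 (adjusted p 0.00501), and the adjusted p was at most 0.0262 with any library left out. Against vector it changed by -0.74 ± 0.26 with deltaNp63beta (adjusted p 0.0424) and by 0.45 ± 0.26 with deltaNp63alpha (adjusted p 0.311). The call with deltaNp63beta was lost without deltaNp63alpha replicates 1, 2 and 3 (adjusted p 0.0565, 0.0568 and 0.0547), deltaNp63beta replicates 1 and 3 (0.0890 and 0.115) and vector replicates 2 and 3 (0.147 and 0.113). It was also lost with looser filters (0.0551 and 0.0735) and with only the groups compared (0.0812). HOXB3 shares exon bases with HOXB4 and HOXB6 on its own strand and with antisense genes, so estimated counts may be split between them.

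HOXB13 (ENSG00000159184, chromosome 17, 48724763 to 48729178, minus strand), the most posterior gene of the cluster and a marker of prostate epithelium, had 9.82, 12.3 and 10.8 with deltaNp63beta, 25.7, 26.5 and 27.6 with deltaNp63alpha and 17.5, 9.98 and 12.5 with vector. The deltaNp63alpha libraries lay above all others, while deltaNp63beta and vector overlapped. For deltaNp63beta against deltaNp63alpha the change was -1.21 ± 0.35 (adjusted p 0.0211), and the adjusted p was 0.0520, 0.0604 and 0.0692 without deltaNp63alpha replicates 1, 2 and 3 and 0.0531 without deltaNp63beta replicate 1. Against vector, deltaNp63alpha gave 0.98 ± 0.35, which did not pass (adjusted p 0.0931, or 0.0143 with no trend and no robust moderation). Values near the filter of 10 rest on few fragments. HOXB2, HOXB4 and HOXB9 did not pass in any comparison. HOXB2, which acts with HOXB1 in the hindbrain, had 61.2, 55.9 and 47.9 with deltaNp63beta, 69.6, 86.7 and 77.6 with deltaNp63alpha and 61.6, 50.8 and 58.8 with vector, so that deltaNp63alpha lay above both other groups. Its change for deltaNp63beta against deltaNp63alpha had an adjusted p of 0.0214 with no trend and no robust moderation. HOXB4 and HOXB9 ranged over 15.6 to 33.7 and 15.7 to 44.4 across the 9 libraries. Summed over the cluster, HOXB RNA was 151 ± 20.6 with deltaNp63beta, 243 ± 18.6 with deltaNp63alpha and 186 ± 12.4 with vector (n = 3 each).

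In the HOXC cluster, HOXC4, HOXC6 and HOXC9 fell with deltaNp63beta against vector, and 0 of 8 genes tested rose at an adjusted or an unadjusted p under 0.05 in limma. The genes called are 37.5% of the 8, while 41.3% of all genes tested were called in this comparison and 19.5% were lower. HOXC4 (ENSG00000198353, chromosome 12, 54016931 to 54056030, plus strand), a gene of the neck and upper trunk, had 2.60, 2.72 and 1.73 with deltaNp63beta, 8.06, 5.27 and 8.24 with deltaNp63alpha and 16.3, 19.0 and 18.8 with vector. The groups stood apart in that order. HOXC4 changed by -2.52 ± 0.48 for deltaNp63beta against vector (adjusted p 0.00157), by -1.28 ± 0.48 for deltaNp63beta against deltaNp63alpha (adjusted p 0.0646) and by -1.24 ± 0.48 for deltaNp63alpha against vector (adjusted p 0.122). HOXC4 passed the filter through its 3 vector libraries alone, so it had to be higher there to be tested, and it was not tested without any of those 3. With any of the other 6 libraries left out, its adjusted p against vector was between 0.00243 and 0.00533. With the filter set at 1 in at least 3 libraries the adjusted p against vector was 0.000667. The change was -1.65 with a pseudocount of 5 and -2.91 with 0.1, since the values are low. With no trend and no robust moderation the adjusted p was 0.00223 against deltaNp63alpha and, with deltaNp63alpha against vector, 0.00563. The first of these was 0.0486 with the filter of 1.

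RefSeq gives HOXC4 a start that is also a start of HOXC5, and the sequence is shown because HOXC4, which was called against vector, shares it with a neighbour. It lies at chr12:54016638-54016937, plus strand, GRCh38.p14, with its 15 CpG dinucleotides in capitals.
HOXC4 and HOXC5: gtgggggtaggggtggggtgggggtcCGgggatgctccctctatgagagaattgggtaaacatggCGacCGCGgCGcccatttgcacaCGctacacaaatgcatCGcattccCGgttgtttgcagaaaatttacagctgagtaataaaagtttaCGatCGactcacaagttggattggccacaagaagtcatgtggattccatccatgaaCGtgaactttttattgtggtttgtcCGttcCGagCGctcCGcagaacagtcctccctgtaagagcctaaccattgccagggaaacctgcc
HOXC5, a gene of the same axial level, had 65.8, 62.5 and 61.8 with deltaNp63beta, 60.3, 48.3 and 73.6 with deltaNp63alpha and 61.6, 64.3 and 50.9 with vector. Its groups overlapped, and its change for deltaNp63beta against vector was 0.11 ± 0.21 (adjusted p 0.707). The difference between the changes of HOXC4 and HOXC5 was not tested.

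HOXC6 (ENSG00000197757, chromosome 12, 53990624 to 54030823, plus strand), a thoracic HOX gene with a role in mammary gland development in mice, had 134, 178 and 135 with deltaNp63beta, 213, 189.8 and 216 with deltaNp63alpha and 216, 260.0 and 276 with vector. The groups did not overlap, though the highest deltaNp63alpha library and the lowest vector library lay side by side. HOXC6 fell by 0.75 ± 0.15 with deltaNp63beta against vector (adjusted p 0.00185). For deltaNp63beta against deltaNp63alpha it fell by 0.48 ± 0.15 (adjusted p 0.0302), and the adjusted p was 0.0797 and 0.0906 without deltaNp63alpha replicates 1 and 3 and 0.0919 and 0.0907 without deltaNp63beta replicates 1 and 3. HOXC9 (ENSG00000180806, chromosome 12, 53994895 to 54003337, plus strand), a repressor of anterior HOX genes in mouse motor neurons, had 163, 181 and 122 with deltaNp63beta, 154, 194 and 199 with deltaNp63alpha and 212, 235 and 199 with vector. Its deltaNp63beta libraries lay below those with vector and overlapped those with deltaNp63alpha, although replicate 3 of deltaNp63beta was below all others. HOXC9 changed by -0.48 ± 0.17 with deltaNp63beta against vector (adjusted p 0.0381), a call lost without deltaNp63beta replicates 1 and 3 (0.0538 and 0.136) and vector replicates 1, 2 and 3 (0.0755, 0.118 and 0.0522). That call was also lost with no filter (0.0547) and without trend and robust moderation (0.0539). In GENCODE 29, HOXC4 shares exon bases with HOXC6, and HOXC6 with HOXC9, on the same strand, so these 3 changes need not be separate measurements.

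HOXC13 (ENSG00000123364, chromosome 12, 53938765 to 53946544, plus strand), which drives hair keratin genes and nail and hair formation, had 221, 178 and 227 with deltaNp63beta, 305, 335 and 279.8 with deltaNp63alpha and 272, 254 and 229.5 with vector. The vector libraries lay between those of the isoforms. HOXC13 fell by 0.56 ± 0.13 for deltaNp63beta against deltaNp63alpha (adjusted p 0.00629), and the changes against vector were -0.27 ± 0.13 with deltaNp63beta (adjusted p 0.111) and 0.28 ± 0.13 with deltaNp63alpha (adjusted p 0.180). HOXC13 shares exon bases with the antisense gene HOXC13-AS. HOXC8, a gene of the lower thoracic level, averaged 292 ± 49.0 with deltaNp63beta, 337 ± 24.2 with deltaNp63alpha and 353 ± 14.4 with vector. Its change for deltaNp63beta against vector was -0.29 ± 0.12 (adjusted p 0.0880), and 0.0262 without deltaNp63beta replicate 2. HOXC10 and HOXC11 ranged over 3.62 to 31.2 and 68.7 to 108 across the 9 libraries and did not pass in any comparison. The cluster sum of HOXC was 983, 1022 and 873 with deltaNp63beta, 1158, 1243 and 1207 with deltaNp63alpha and 1269, 1288 and 1216 with vector, so that all deltaNp63beta libraries were lowest.

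None of the 3 DLX genes tested passed in any comparison. At unadjusted p under 0.05 in limma, 1 was lower with deltaNp63alpha against vector, 0 changed with deltaNp63beta against vector and 0 between the isoforms. DLX1 had 69.9, 66.7 and 79.4 with deltaNp63beta, 83.3, 90.2 and 84.4 with deltaNp63alpha and 112, 79.6 and 93.5 with vector. Its partner in the same cluster, DLX2, had 54.0, 35.2 and 46.8 with deltaNp63beta, 33.6, 33.2 and 30.1 with deltaNp63alpha and 57.4, 50.9 and 45.3 with vector. Every deltaNp63alpha library of DLX2 was below every other library, and its change against vector was -0.64 ± 0.24 (adjusted p 0.102). With no trend and no robust moderation, that adjusted p was 0.0418, and DLX1 had 0.0465 for deltaNp63beta against vector. DLX4 ranged from 4.48 to 26.5. DLX3, which p63 regulates in keratinocytes, reached 1.99 at most, DLX5 reached 2.25 and DLX6 reached 8.66, so the limb pair DLX5 and DLX6 was below the filter.

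**Figure D4:**
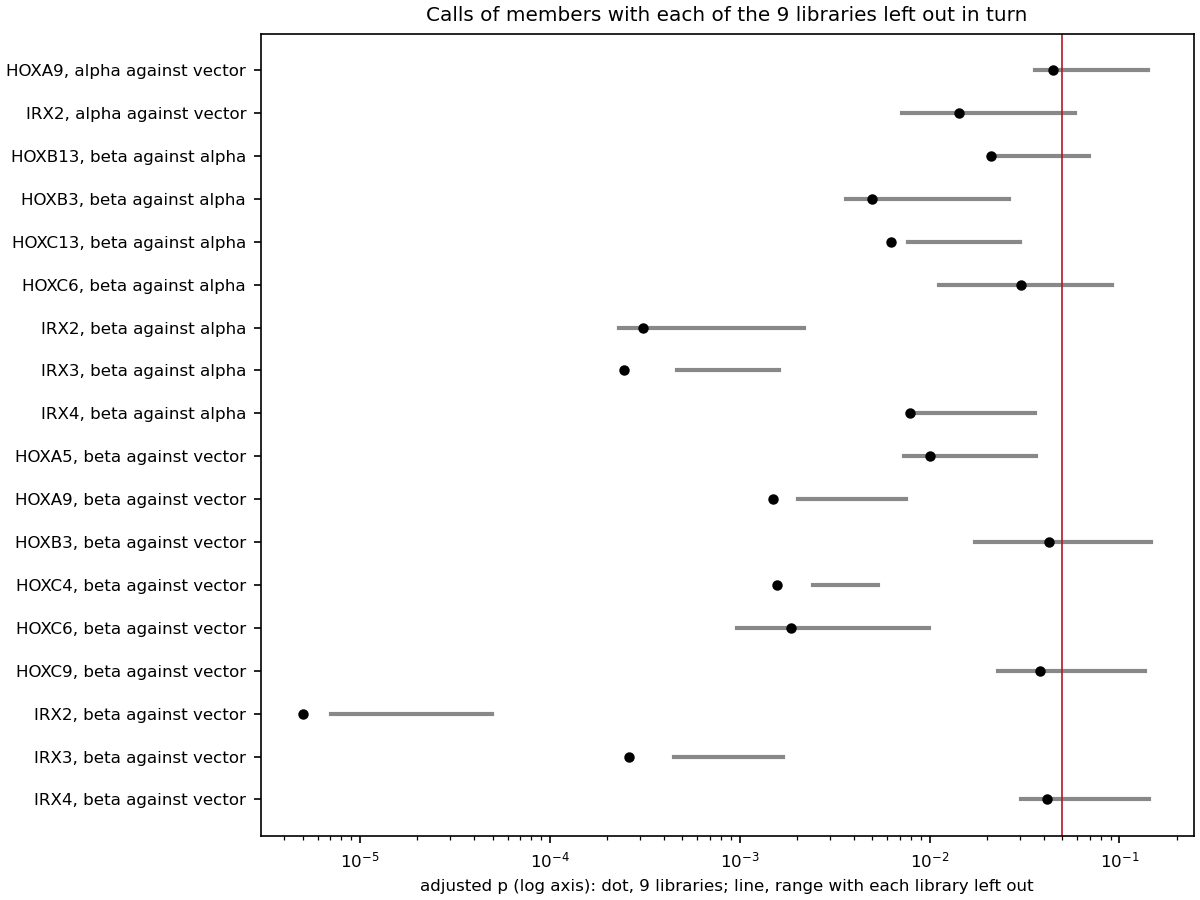
Limma adjusted p, on a log axis, of each of the 18 calls in the 3 comparisons, with the dot for all 9 libraries, the line for the range over leaving out each library in turn (HOXC4 could be tested in 6 of these 9 settings) and the red line at 0.05. For IRX2 with deltaNp63beta against vector the range stays between 7.07e-06 and 5.0e-05, while both calls of deltaNp63alpha against vector cross the line.

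The cofactors that bind DNA with HOX proteins were described from a list of 9 TALE homeodomain genes, 8 of them tested. Against vector, 0 rose and 2 fell with deltaNp63beta, 0 rose and 1 fell with deltaNp63alpha, and 1 rose and 1 fell for deltaNp63beta against deltaNp63alpha (limma). At unadjusted p under 0.05, 0 were still higher with either isoform against vector. MEIS3 had 118, 107 and 112 with deltaNp63beta, 201, 243 and 207 with deltaNp63alpha and 295, 287 and 287 with vector. It fell in steps that did not overlap, by 1.36 ± 0.12 with deltaNp63beta against vector (adjusted p 3.89e-06) and by 0.42 ± 0.12 with deltaNp63alpha (adjusted p 0.0334). PKNOX1, which pairs with PBX proteins, changed by -0.30 ± 0.11 with deltaNp63beta (adjusted p 0.0386). The median log2 fold change of the list was -0.02 with deltaNp63beta and 0.04 with deltaNp63alpha against vector, beside -0.00 and -0.01 over all genes. The shares called, 25.0% and 12.5% against vector and 25.0% between the isoforms, were below those of all genes tested, at 41.3%, 14.5% and 32.9%.

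Of 24 Polycomb genes, all tested, 2 rose and 5 fell with deltaNp63beta against vector, 0 rose and 2 fell with deltaNp63alpha, and 3 rose and 4 fell for deltaNp63beta against deltaNp63alpha. These are 29.2%, 8.33% and 29.2% of the list, each below the 41.3%, 14.5% and 32.9% of all genes tested. RBBP7, a histone-binding subunit, rose by 0.30 ± 0.04 with deltaNp63beta (adjusted p 8.54e-05), while PHC2 and CBX6 of the PRC1 complexes fell by 0.33 ± 0.05 and 0.23 ± 0.06. SUZ12, a core subunit of PRC2, fell by 0.27 ± 0.05 (adjusted p 0.00196). The list's median was -0.06 with deltaNp63beta and -0.07 with deltaNp63alpha against vector, and at unadjusted p under 0.05 in limma 0 were higher with deltaNp63alpha. Of 12 Trithorax-group and demethylase genes, all tested, 1 rose and 2 fell with deltaNp63beta, 0 rose and 1 fell with deltaNp63alpha, and 0 rose and 2 fell for deltaNp63beta against deltaNp63alpha, with 1 higher in each of the last pair at unadjusted p under 0.05 in limma. The list's median was -0.11 with deltaNp63beta and -0.08 with deltaNp63alpha against vector. The shares called were 25.0%, 8.33% and 16.7%, also below those of all genes tested. MEN1, which guides KMT2A to HOX genes, fell by 0.44 ± 0.06 with deltaNp63beta (adjusted p 0.000216), PSIP1 fell by 0.24 ± 0.06 and DPY30 rose by 0.33 ± 0.06. Of 21 non-coding and EVX genes of the HOX and DLX clusters, 2 matched a symbol, EVX1 and EVX2, and 0 passed the filter.

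Among 46 other homeobox genes, 27 of them tested, 5 rose and 4 fell with deltaNp63beta against vector, 1 rose and 3 fell with deltaNp63alpha, and 2 rose and 4 fell for deltaNp63beta against deltaNp63alpha. That makes 33.3%, 14.8% and 22.2%, beside 41.3%, 14.5% and 32.9% of all genes tested. ZEB2, a repressor of E-cadherin, had 60.5, 93.6 and 92.1 with deltaNp63beta, 209.99, 181.5 and 185 with deltaNp63alpha and 524, 483 and 355 with vector. It fell by 2.46 ± 0.19 with deltaNp63beta (adjusted p 1.93e-06) and by 1.22 ± 0.19 with deltaNp63alpha (adjusted p 0.00143). ZEB1, its relative, fell by 1.41 ± 0.14 with deltaNp63beta, and PITX1, a hindlimb gene, and TGIF2, a TALE repressor, rose by 0.66 ± 0.07 and 0.57 ± 0.11. Among 21 limb bud and ridge genes, 12 of them tested, 4 rose and 4 fell with deltaNp63beta, 2 rose and 2 fell with deltaNp63alpha, and 0 rose and 2 fell for deltaNp63beta against deltaNp63alpha, where 0 were higher at unadjusted p under 0.05 in limma as well. The shares of limb genes called were 66.7%, 33.3% and 16.7%, from 12 genes. Against vector the medians of the other homeobox genes were 0.02 with deltaNp63beta and 0.04 with deltaNp63alpha, and those of the limb genes 0.37 and 0.31 in the same order. TBX3, a limb and mammary bud gene, fell by 0.90 ± 0.09 and WNT5A fell by 1.07 ± 0.12 with deltaNp63beta, while WNT7A and JAG2, both signals of the limb ectoderm, rose by 0.94 ± 0.13 and 0.40 ± 0.07.

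RefSeq starts were found for 26 of the 50 genes, 34 distinct ones in all, 22 of them at genes that were tested, with the start shared by HOXC4 and HOXC5 counted once. They held a median of 25 CpG dinucleotides in 300 bases, against 14 over 34943 distinct RefSeq promoters of the same length, and had a GC content of 60.5%, against 58.7%. The ratio of observed to expected CpG had a median of 0.87 in these 34 and 0.58 in all promoters. A homeodomain core, TAATTA, was found on either strand in 2 of the 34 and in 4.85% of all promoters, and a TALE and HOX composite, TGATNNAT, in 3 of the 34 and in 7.42%. The Iroquois palindrome, ACANNTGT, was in 0 of the 34 and in 5.63% of all. The p63 half-site was in 2 of the 34, at a HOXA3 start and at HOXD4, and in 6.64% of all. None of these motifs was found in the 3 sequences printed above. A HOXD11 start holds both TAATTA and TGATNNAT, and the matches do not overlap. Both strands were read, and a match is a description of letters only.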

How the data were processed

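Poly(A) RNA of 9 MCF10A cultures was measured, 3 a group. The deposited signal values were taken to be normalized estimated counts per gene. The submitters' processing notes name kallisto 0.46.2, DESeq2 and GRCh38, but not the step that gave these values. The version and role of DESeq2 are not given in the sources used here. Neither the annotation nor a strand setting is given there. Values up to 20 steps were whole multiples of a library's step, within 0.1 step, in only 61.0% to 63.9% of cases, so reads were not recovered and no count test was run. No interval for counting error was computed for that reason.

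From the deposited values, limma 3.58.1 in R 4.3.3 was fitted to log2(value + 1) for genes that reached 10 in 3 or more libraries, with trend and robust moderation, all 9 libraries in 1 fit and Benjamini-Hochberg adjustment over 15108 genes, called under 0.05. Adding 1 shrinks the fold changes of weakly expressed genes. The p-values measure the spread between these cultures. The fit was tested on simulated data. Files were read with pandas 2.3.3 and numpy 2.4.6 and plots drawn with matplotlib 3.10.9, in Python 3.11.15. Gene positions and transcript lengths came from GENCODE 29, and promoter sequences from RefSeq on GRCh38.p14.

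The genes, the 6 lists with 133 entries and the tests were chosen with earlier results of these data known. The text names the HOX, DLX and IRX genes, each in full where it was called in at least 1 comparison, and up to 4 called genes of a list by smallest adjusted p for deltaNp63beta against vector; the uncalled genes given in full were picked after their values were seen. 1 of the 51 genes that the naming rule finds is not reported here and stays out of every count over these families. EVX1 and EVX2 were named for being the only matches of their list. Alternatives were 2 scalings, 2 filters, 2 pseudocounts, only the 2 groups compared, a replicate block, no trend or robust moderation, and leaving out each library.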

Additional observations from a re-analysis of the deposited data

How the results depend on the processing

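Recomputed median-of-ratios factors were 1.00 in every library, so that scaling changed nothing, and equal library totals moved the median change of all genes by less than 0.1. Of the fold changes of single genes of the 3 families, 753 kept direction and side of the threshold under settings other than leaving out a library, 16 lost a call, 8 gained one and 2 uncalled ones changed sign. With a library left out these numbers were 695, 36, 5 and 29, and no called value changed sign. The 753 include the results under median-of-ratios factors, which could not differ from the main fit. The count of genes higher with deltaNp63alpha against vector, 2 in all, was 1 with equal library totals, 1 with no filter, 1 with a filter of 1 in at least 3 libraries, 1 with only the 2 groups compared and 1 under the replicate block. Genes lower with deltaNp63beta against vector, 6 in all, numbered 3 with no filter, 4 with the filter of 1, 4 with only the 2 groups compared, 4 under the replicate block and 7 with equal library totals, where HOXA2 was added. The replicate block ended the calls of HOXA9 with deltaNp63alpha (adjusted p 0.0737) and of HOXB3 and IRX4 with deltaNp63beta (0.0555 and 0.0532) against vector. Looser filters change both the number of genes that p-values are adjusted over and the SE after moderation. The part of each in the lost calls was not tested. With no trend and no robust moderation, 2 genes, DLX2 and HOXC4, were lower with deltaNp63alpha, against 0, and 3 were higher, with HOXB13 added; the cause was not tested. Shared replicate numbers gave no sign of pairing: deviations from the group means had correlations of -0.12 to 0.08 within a number and of -0.14 to 0.12 across numbers. With each library left out in turn, counts of higher and lower genes ranged over 0 to 2 and 0 to 0 for deltaNp63alpha against vector, 3 to 3 and 2 to 6 for deltaNp63beta against vector, and 2 to 3 and 3 to 5 for deltaNp63beta against deltaNp63alpha. Over all genes the calls ranged over 920.0 to 1239 higher and 640.0 to 1022 lower for deltaNp63alpha against vector. The deposited values are not counts, so depth limits values near the filter of 10 most, such as those of HOXC4 and HOXB13.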
